A study of Homo sapiens with 4 samples.

Results

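The genes that carry, make and break down serotonin were followed in LASCPC-01 cells given PBS or fluoxetine. The set holds the serotonin transporter SLC6A4, the tryptophan hydroxylases TPH1 and TPH2, the decarboxylase DDC, the monoamine oxidases MAOA and MAOB, the vesicle transporters SLC18A1 and SLC18A2 and the plasma membrane carrier SLC29A4. The genes were picked by symbol as the fluoxetine target and the genes of monoamine handling. Of these 9 genes, 7 were among the 16376 genes in the table of expression values. TPH2 and SLC18A1 had no row under their symbols and were not analysed here.

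LASCPC-01 is a human prostate cancer line of neuroendocrine type that was made by expressing NMYC together with activated AKT1, and all 4 libraries come from it. The PBS and the Fluoxetine group held 2 libraries each, all sampled on day 3 by the labels, whereas the study's text gives 48 h of fluoxetine at 5 µM. The titles of the fluoxetine libraries carry the letters PP. The labels do not say whether replicates were separate cultures, so the p-values given here measure the spread between these libraries, which may be technical. The line is the only model in the series, and RNA was measured in bulk, so fewer cells expressing a gene and less RNA per cell cannot be told apart.

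Serotonin is made from tryptophan by a hydroxylase that needs a pterin cofactor and then by DDC, which uses pyridoxal phosphate. VMAT proteins, encoded by SLC18A1 and SLC18A2, load it into vesicles, the transporter encoded by SLC6A4 returns it to the cell, and monoamine oxidases degrade it. Fluoxetine is an antidepressant that blocks the SLC6A4 transporter, and some neuroendocrine cells of the prostate are known to contain serotonin.

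Promoter sequences are shown for TPH1 and SLC29A4, since these are the members with enough RNA to compare the groups. Each is the 250 bases before the RefSeq start on GRCh38.p14, written 5′ to 3′ on the strand of the gene, with every CpG in capitals. They lie at chr11:18046270-18046519 on the minus strand for TPH1 and at chr7:5282693-5282942 on the plus strand for SLC29A4. The TPH1 window lies before the GENCODE 29 span of the gene, and the SLC29A4 window is intronic to a transcript that begins farther upstream, and another transcript begins in its last bases.
TPH1: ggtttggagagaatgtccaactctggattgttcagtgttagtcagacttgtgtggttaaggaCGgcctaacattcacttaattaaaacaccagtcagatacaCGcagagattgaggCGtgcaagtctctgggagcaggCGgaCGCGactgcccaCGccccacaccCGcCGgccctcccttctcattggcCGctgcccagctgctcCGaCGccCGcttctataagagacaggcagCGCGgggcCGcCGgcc
SLC29A4: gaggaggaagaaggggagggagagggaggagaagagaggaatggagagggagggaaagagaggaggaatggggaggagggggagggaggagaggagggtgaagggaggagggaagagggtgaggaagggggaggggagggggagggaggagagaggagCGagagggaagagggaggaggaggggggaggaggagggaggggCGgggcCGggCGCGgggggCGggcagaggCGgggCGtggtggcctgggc

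The same window of SLC6A4, which falls in an exon of the 5′ UTR in GENCODE 29 and is not printed, held 29 CpG, more than 85.9% of the 35116 promoter windows of this length. The window of TPH1 held 17 CpG and that of SLC29A4 held 8, where the median of all windows was 11. At least 1 CpG (the letters CG, which read the same on both strands) was present in 93.9% of all windows. Among the members with next to no RNA, SLC18A2 held 33 CpG, MAOB 21 and MAOA 17, whereas the windows at the 2 starts of DDC held 2 and 3. Methylation was not measured in this series.

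RNA of the fluoxetine target was barely detectable. SLC6A4, on chromosome 17 from 30194319 to 30236002 (GRCh38, GENCODE 29, as for all gene positions here), read 0 FPKM in PBS replicate 1, 0.00454 FPKM in PBS replicate 2 and in fluoxetine replicate 1, and 0.00906 FPKM in fluoxetine replicate 2. FPKM counts sequenced fragments per gene after allowing for its length and for library depth. Because each gene's FPKM moves in steps of a single read, the reads behind it could be solved, and for SLC6A4 they were 0 and 1 in PBS and 1 and 2 in fluoxetine. These 4 reads stood against a depth between 32873603 and 34831389 reads in each library. The groups overlapped at this level, and 0 reads in PBS replicate 1 allow up to 0.0144 FPKM, taken as 3 reads, so no difference in SLC6A4 between PBS and fluoxetine was detectable at this depth. The mean FPKM of SLC6A4 was above that of 6.36% of the listed genes.

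SLC29A4, the plasma membrane monoamine transporter, was the carrier with measurable RNA. It is a low-affinity, high-capacity carrier of serotonin and other organic cations, and lies on chromosome 7 from 5274369 to 5306870. Its level was 1.27 and 1.17 FPKM under PBS against 0.852 and 0.993 FPKM under fluoxetine, from 127, 123, 90 and 105 reads. The groups did not overlap, with PBS the higher. The group means were 1.22 ± 0.0756 FPKM with PBS and 0.923 ± 0.0999 FPKM with fluoxetine (SD, n = 2 each). On the log2(FPKM + 0.1) scale, which understates changes of low genes, the difference of fluoxetine from PBS was -0.37 with a standard error of 0.19 and a 95% interval from -0.78 to 0.04. It did not pass the test across the 12663 genes with a mean of at least 0.1 FPKM (adjusted p = 0.602 from limma with Benjamini-Hochberg adjustment). Both fluoxetine libraries lay below both PBS libraries in 24.8% of the genes tested, so this order is common. A two-sided exact permutation test of 2 libraries against 2 gave p = 0.333 for SLC29A4, the smallest value it can give.

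In GENCODE 29 the SLC29A4 locus overlaps TNRC18, which lies on the opposite strand, and whether the counting used strand is not given in the sources used here. The length by which the SLC29A4 values had been divided was 3035 bases, shorter than its 5811 exon bases in GENCODE 29. TNRC18 had a log2 fold change of -0.03 (standard error 0.09), with overlapping groups. Whether reads of TNRC18 entered the SLC29A4 values was not tested.

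The genes whose centred log2 values lay nearest to those of SLC29A4 over the 4 libraries, out of 10579 with a mean of at least 1 FPKM, were INHBE, RET and SERTAD2. Their root mean square differences from SLC29A4 were 0.022, 0.027 and 0.028 on the log2 scale. INHBE encodes a subunit of activin E, RET is a receptor tyrosine kinase, and SERTAD2 is a transcriptional coregulator. With 4 libraries and this many candidates, a close match is a description of these values.

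TPH1, the hydroxylase of peripheral serotonin-producing cells, had low but countable RNA. The gene lies on chromosome 11 from 18017564 to 18042426. It had 0.309 and 0.244 FPKM with PBS and 0.333 and 0.202 FPKM with fluoxetine, from 49, 41, 56 and 34 reads. The replicate 1 library was the higher of the pair in both groups, and the groups overlapped. The log2 fold change of TPH1 was -0.05, with a standard error of 0.33 and a 95% interval from -0.78 to 0.67 (adjusted p = 0.977 from limma). The sign was not stable, since without PBS replicate 1 the value was 0.07 and without Fluoxetine replicate 2 it was 0.21. The interval is wide enough to hold a rise or a fall of the size seen in SLC29A4.

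RNA of DDC, the enzyme that follows TPH1, was read in 1 of 4 libraries. DDC, on chromosome 7 from 50458436 to 50565457, was at 0 in PBS replicate 1 and in both fluoxetine libraries, and had 0.0425 FPKM in PBS replicate 2. That value equals 1 read for a gene of 677 bases, or a larger whole number of reads for a longer gene, such as 4 reads for 2708 bases. At 677 bases, 0 reads allow up to 0.135 FPKM, above the value seen, and less for a longer gene. The groups overlapped at 0. DDC has 3136 exon bases in GENCODE 29, where its span also overlaps FIGNL1 on the same strand.

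Monoamine oxidase RNA was close to nothing. MAOA and MAOB lie side by side on chromosome X, MAOA from 43654907 to 43746824 and MAOB from 43766611 to 43882447, and encode the enzymes that oxidise serotonin and other amines. MAOA had 0.0114 and 0.0432 FPKM with PBS and 0.0323 and 0.00538 FPKM with fluoxetine, or 2, 8, 6 and 1 reads. In MAOA each group held a library with at least 6 reads and a library with at most 2, so the groups overlapped. MAOB was at 0 in both PBS libraries and in fluoxetine replicate 2, and had 0.00999 FPKM, equal to 1 read, in fluoxetine replicate 1. A count of 0 allows up to 0.0317 FPKM for MAOB.

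SLC18A2, the vesicular monoamine transporter found in neurons and some endocrine cells, was likewise at the edge of detection. It lies on chromosome 10 from 117241073 to 117279430 and had 0.0238 and 0.0300 FPKM with PBS and 0 and 0.0375 FPKM with fluoxetine. These were 3, 4, 0 and 5 reads. The fluoxetine libraries thus held both the lowest and the highest value of SLC18A2.

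Of the 7 genes, 5 had no more than 8 reads in any library and a mean under 0.1 FPKM, and were not tested. A mean under 0.1 FPKM was found for 22.7% of all listed genes. Among the 20 library values of these 5 genes, 8 were 0. The order of levels was SLC29A4, then TPH1, then the other 5, and the lowest SLC29A4 value lay above the highest TPH1 value, as the lowest TPH1 value lay above every value of the other 5. The mean FPKM of SLC29A4 was 3.93 times that of TPH1. Neighbours among MAOA, SLC18A2, DDC, SLC6A4 and MAOB overlapped in their library values, so no order was read among them. Neither of the 2 members tested was called by limma at an adjusted p under 0.05, while 30 genes, or 0.237% of those tested, were. Of all genes tested, 1078 had an unadjusted p under 0.05, and neither SLC29A4 (0.0735) nor TPH1 (0.878) was among them.

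The labelled identity of the cells was read from markers of neuroendocrine cells. INSM1 had 21.7 to 24.2 FPKM and NCAM1 44.3 to 52.0 FPKM in the 4 libraries, whereas SYP had 0.142 to 0.629 FPKM and CHGA and NEUROD1 stayed under 0.1 FPKM. In 4 of the 7 identity markers tested both fluoxetine libraries were the lower, an order found in 24.8% of all genes tested, none had an adjusted p under 0.05, and their part in the values of SLC29A4 and DBH was not tested. Of 8 markers of stromal and immune cells, COL1A1 and CD68 were above 1 FPKM, and PTPRC and PECAM1 were at no more than 0.0318 FPKM.

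Of 17 serotonin receptor genes, 9 were in the table and 3 had a mean of at least 0.1 FPKM, namely HTR2C, HTR3C and HTR3E. The other 6 had lower means, and HTR1B was at 0 in all 4 libraries. HTR2C, a receptor coupled to G proteins of the Gq class, lies on chromosome X from 114584078 to 114910061. It had 2.97 and 3.21 FPKM with PBS and 2.99 and 2.97 FPKM with fluoxetine, from at least 463 reads in each library. The values of HTR2C overlapped between the groups, with a log2 fold change of -0.05, a standard error of 0.12 and a 95% interval from -0.32 to 0.22 (adjusted p = 0.931 from limma).

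HTR3C and HTR3E encode subunits of the ion channel class of serotonin receptor and lie near each other on chromosome 3, from 184053047 to 184060671 and from 184097064 to 184106995. HTR3C had 3.40 and 3.88 FPKM with PBS and 5.45 and 4.17 FPKM with fluoxetine, with both fluoxetine libraries above both PBS libraries, as for 16.7% of the genes tested. Its mean FPKM was 3.94 times that of SLC29A4. The log2 fold change of HTR3C was 0.38 with a standard error of 0.14 (adjusted p = 0.522 from limma), and without Fluoxetine replicate 1 it was 0.20. HTR3E lay in the opposite order, at 0.709 and 0.988 FPKM with PBS and 0.552 and 0.575 FPKM with fluoxetine. The log2 fold change of HTR3E was -0.50 with a standard error of 0.23 (adjusted p = 0.579 from limma). Without PBS replicate 2, the value of HTR3E was -0.29. HTR3A, the subunit that forms a channel without the others, was counted 12 and 6 times under PBS and 2 and 7 times under fluoxetine, and its mean was under 0.1 FPKM. None of the 3 receptors tested had an adjusted p under 0.05.

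RNA of genes for the cofactors of the serotonin enzymes was measured in every library. All 8 genes for the pterin cofactor of tryptophan hydroxylase were tested, and none had an adjusted p under 0.05, with log2 fold changes between -0.16 and 0.20 and a median of 0.06, beside -0.02 over all genes tested. PCBD1, which recycles the used cofactor, had 91.4 to 104 FPKM in the 4 libraries. QDPR, which reduces it, had a mean of 31.6 FPKM, and GCHFR, the regulator of the entry enzyme GCH1, one of 22.6 FPKM. PTS, an enzyme of its synthesis, had 17.1 to 22.9 FPKM, and the lowest levels of the list were those of GCH1, at 7.17 to 8.13 FPKM, and PCBD2, at 2.28 to 3.23 FPKM.

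All 4 genes for pyridoxal phosphate, the cofactor of DDC, were tested too, and none had an adjusted p under 0.05. PDXP, a phosphatase that removes this cofactor, had a mean of 53.3 FPKM. PDXK, a kinase that helps to make it, had 12.1 to 14.3 FPKM, and its binding protein PLPBP had 10.8 to 12.4 FPKM. RNA of these cofactor genes was thus present in every library in which DDC was at 0.

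Tryptophan enters cells mainly through the carrier of SLC7A5 and SLC3A2. SLC7A5 had 137 to 153 FPKM and SLC3A2 had 63.6 to 82.5 FPKM, SLC16A10 had a mean of 1.11 FPKM and SLC7A8 had 0.0802 to 0.154 FPKM. None of these 4 uptake genes had an adjusted p under 0.05. Of the 9 genes of the kynurenine route, which uses tryptophan in place of serotonin synthesis, 5 were in the table and 3 were tested, with none called. QPRT, a late enzyme of the route, had 38.4 to 43.9 FPKM, AFMID had 20.2 to 23.9 FPKM and KYAT1 had 3.82 to 4.78 FPKM, while KMO had at most 2 reads in a library. The entry enzyme TDO2 was at 0 in a library of each group and at no more than 0.0179 FPKM in the others.

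Other carriers of amines were scarce. SLC6A3, the dopamine transporter, SLC22A2 and SLC22A3 each had RNA in 1 fluoxetine library, at no more than 0.0119 FPKM. SLC47A1, which exports organic cations, had 0.306 and 0.298 FPKM with PBS and 0.184 and 0.254 FPKM with fluoxetine (adjusted p = 0.754 from limma).

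Among the other enzymes of monoamine metabolism, DBH fell with fluoxetine and was the 1 gene with an adjusted p under 0.05 of the 35 tested in the 8 related lists, where 0.237% of all genes tested had one. DBH turns dopamine into noradrenaline, and lies on chromosome 9 from 133635348 to 133659344. It had 5.47 and 6.55 FPKM with PBS and 2.70 and 2.98 FPKM with fluoxetine, from 494, 625, 258 and 285 reads. Each fluoxetine value of DBH was well under each PBS value, and the ratio of the group means was 2.12. The log2 fold change of DBH was -1.05 with a standard error of 0.13 and a 95% interval from -1.32 to -0.78 (adjusted p = 0.00412 from limma). The call was lost without PBS replicate 1 (-1.18, adjusted p = 0.0693) and without PBS replicate 2 (-0.92, adjusted p = 0.214), and also without the filter on low values (adjusted p = 0.420) or the variance trend (adjusted p = 0.233). It was kept in the other 12 of 16 alternatives. The antisense gene DBH-AS1 overlaps DBH, and reads of the pair cannot be told apart without strand. TH, which begins the dopamine route, was not analysed here.

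The aldehyde-handling enzymes AKR1B1, ALDH1B1 and ALDH9A1 had 212 to 270 FPKM, 86.5 to 95.6 FPKM and 19.4 to 20.9 FPKM. None of these 3 had an adjusted p under 0.05. AANAT, an enzyme of melatonin synthesis, was at 0 in 3 libraries and at 0.00661 FPKM in PBS replicate 2.

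Of 8 partners and regulators of the serotonin transporter, 6 were tested and none had an adjusted p under 0.05. PPP2CA, the catalytic subunit of a phosphatase, had 40.2 to 42.5 FPKM, and SEC24C, which takes cargo out of the endoplasmic reticulum, had 39.6 to 42.6 FPKM. SCAMP2 had 32.7 to 35.6 FPKM and PICK1, a scaffold protein, had 23.4 to 27.5 FPKM. TGM2, described because of its values, is a transglutaminase that can attach serotonin to proteins, on chromosome 20 from 38127387 to 38166578. It had 0.794 and 1.09 FPKM with PBS and 0.290 and 0.317 FPKM with fluoxetine, from 137, 198, 53 and 58 reads. Its groups lay well apart, with a log2 fold change of -1.35, a standard error of 0.25 and a 95% interval from -1.90 to -0.80, and an adjusted p of 0.0616 from limma did not pass the threshold. With a pseudocount of 1 the log2 fold change of TGM2 was -0.57. The adjusted p of TGM2 was under 0.05 in 3 of the 15 alternatives that tested it. These were robust moderation (0.0493), the replicate block (0.0185) and limma voom on the solved reads (0.00368). The other 12 did not pass. Among them, the adjusted p from limma was 0.173 with quantile normalization, 0.517 without the filter on low values and 0.233 without the variance trend.

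**Figure D1:**
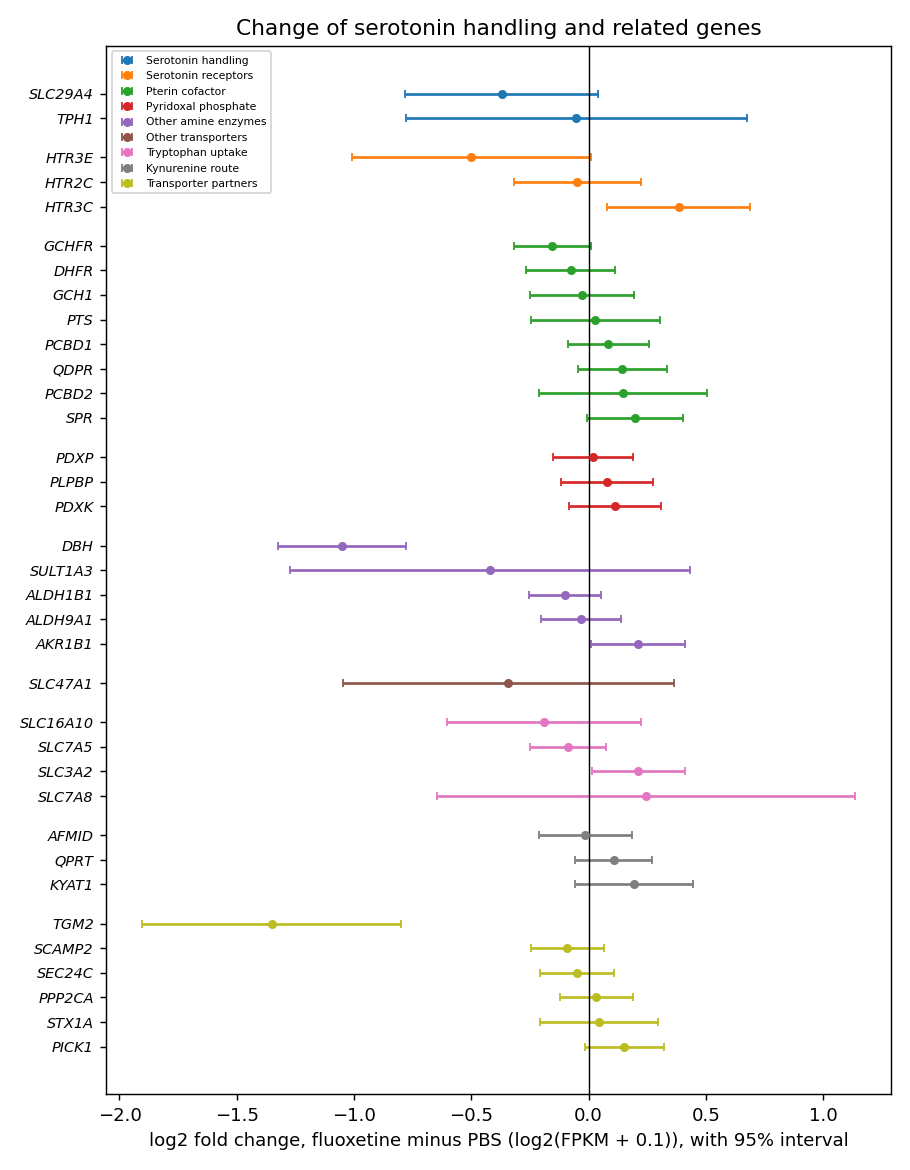
Log2 fold change of fluoxetine against PBS for the 2 tested serotonin handling genes and 33 of the 35 tested genes of related lists, grouped by list and coloured by it. Points are limma estimates on log2(FPKM + 0.1) and bars are 95% intervals before adjustment. DBH at -1.05 and TGM2 at -1.35 lie farthest from 0, and the intervals of SLC29A4 and TPH1 include 0.

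Over the 35 related genes, the median log2 fold change was 0.02, beside -0.02 over all genes tested. The groups stood apart with fluoxetine the lower in 10 of them and the higher in 7. The background shares of these orders were 24.8% and 16.7% of all genes tested.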

How the data were processed

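RNA of 2 PBS and 2 fluoxetine libraries of LASCPC-01 cells was sequenced as paired ends. The authors deposited FPKM per gene and library. Per the labels, fastp, HISAT2, HTSeq and the build GRCh38 appear in the processing notes, without versions. The annotation behind the lengths is not given in the sources used here. The study's text and the labels name different library kits, and whether strand was used in counting is not given in the sources used here.

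Groups were compared with limma 3.58.1 (R 4.3.3), letting the prior variance follow the mean, on log2(FPKM + 0.1) of the 12663 genes whose mean reached 0.1 FPKM. DESeq2, which the authors name for their own test, needs counts and was not used.

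Whole reads were solved from ratios of FPKM between libraries, within 0.004 of a whole number, with a depth shared by 119 genes at their GENCODE 29 exon lengths. A gene length of whole bases within 0.02 was required. This solved 16006 of 16080 genes above 0. True reads can be multiples of those given, and limits from counts cover counting error alone. Scripts were tested on simulated data. Tables were made in Python 3.11.15 (pandas 2.3.3, scipy 1.17.1) and figures with matplotlib 3.10.9. Promoter windows came from RefSeq on GRCh38.p14, in which all 7 genes were found.

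Values are given for the 7 members in the table, for up to 4 genes of highest mean FPKM in each related list, for tested receptors, for listed genes with an adjusted p under 0.05 and for the 3 nearest profiles to SLC29A4. HTR3A, GCH1, PCBD2, TDO2, AANAT, SLC22A3, TGM2, TNRC18 and some cell markers were named after their values were seen. Alternatives were other pseudocounts, filters, scalings and moderation, the replicate block, each library left out, and limma voom on the solved reads. Some list genes entered the fits and counts but are not reported here by name. Members and lists were chosen with earlier results of these data known.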

Additional observations from a re-analysis of the deposited data

How the results depend on the processing

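No member was called under any of the 16 alternatives, also when all 7 were tested without the filter on low values, where 0 of 16080 genes were called and 1069 had an unadjusted p under 0.05. Only 1 member was tested with a mean of at least 1 FPKM, and 4 were tested with voom. SLC29A4 stayed lower in fluoxetine under all 16, between -0.47 and -0.21, with adjusted p from 0.425 to 0.994. The value of TPH1 turned to 0.092 with quantile normalization and ranged from -0.31 to 0.21 with 1 library left out. That of HTR2C turned to 0.029 with quantile normalization and ranged from -0.10 to 0.0045 with 1 library left out. HTR3C stayed higher (0.20 to 0.57) and HTR3E lower (-0.71 to -0.24), with no adjusted p under 0.05. Of all genes, 30 were called, and 16 with quantile normalization, 0 without the variance trend, 57 with limma voom on the solved reads and 3 to 17 with 1 library left out (8 without PBS replicate 1, 3 without PBS replicate 2, 17 without Fluoxetine replicate 1, 12 without Fluoxetine replicate 2). The cause was not tested. In the related lists, 1 gene was called, 0 without the filter or the trend, 2 with robust moderation, the replicate block or voom, and 0 to 1 with 1 library left out. The replicate block gave 64 calls over all genes, including all 30, and adjusted p of 0.505 for SLC29A4 and 0.0185 for TGM2. Same-numbered libraries deviated together with r = 0.035 across genes, so the numbers were not taken as pairs. Removal of the gene length trend and voom were chosen after seeing the data. The 5 members under 0.1 FPKM, with at most 8 reads per library, are limited by depth.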
